A study of Mus musculus with 6 samples.

Results

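Collectrin, the product of *Cltrn*, and 7 amino acid transporter genes of the kidney tubule, *Slc6a18*, *Slc6a19*, *Slc3a1*, *Slc7a9*, *Slc1a1*, *Slc7a8* and *Slc3a2*, were followed in single-cell RNA sequencing data of mouse renal cortex. The 8 genes were taken by symbol from 26903 genes listed in the count matrices, and each was present in all 6 libraries. They were chosen by an earlier look at the same libraries, in which *Cltrn* differed between wild-type (WT) and *Prdm16* knockout (KO) mice in the connecting tubule, so the WT to KO values of *Cltrn* are given as a description without a test. The values that chose it were 11.1, 11.2 and 16.5 CPM in the WT libraries and 91.2, 95.3 and 88.0 CPM in the KO libraries. The transporters were taken with it for their role. The rule set no threshold on a value.

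The study asked how loss of PRDM16, a zinc finger transcription regulator, changes the kidney cortex. The libraries came from 3 WT and 3 global *Prdm16* KO mice, 1 mouse per library, all aged 9 months and all labelled male. The KO line was made with CRISPR-Cas9 by removing exon 2 of *Prdm16*, which shifts the reading frame, and the deletion is carried by every cell of the body. The mice received no treatment that the sample labels give, and the labels give no strain. The study's methods name C57BL/6J as the mice that were bought. Fresh cortex was digested with enzymes for 90 min at 37 °C, a step that itself induces stress genes, and single cells were caught in microwells (BD Rhapsody).

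Barcodes with 500 to 60000 unique molecular identifiers (UMIs, 1 per captured transcript), 200 to 8000 genes and at most 80% mitochondrial UMIs were kept, which left 7463 to 10240 per library and 54399 in all. Their median depth ranged from 2563.5 to 4798 UMIs, and their median mitochondrial share from 36.2% to 50.7%. After 3267 likely doublets were removed, 51132 barcodes fell into 26 clusters, which marker genes placed into 14 cell classes. Levels are given as UMIs per 1000000 UMIs of nuclear-encoded genes (CPM) in the sum over all barcodes of a class in 1 library, always in the order replicate 1, 2, 3. In such a sum, more cells with the transcript and more transcript per cell cannot be told apart. Each UMI comes from the 3′ end of a transcript, and levels were compared between classes and libraries for 1 gene, never between genes. Pairs of libraries shared 0 to 4 kept barcodes.

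Labels and libraries were checked first. *Xist*, the RNA of the inactive X chromosome that only cells with more than 1 X chromosome make, stood at 0.119, 456 and 0.177 CPM in WT 1, 2 and 3 and at 454, 0.250 and 0.0711 CPM in KO 1, 2 and 3. The libraries WT 2 and KO 1 therefore went against the label male, and *Cltrn* and the transporter calls within a class are given without them as well. For the neighbours of *Cltrn* and the genes of the further lists, values without both libraries are not given. *Prdm16* itself stood at 54.4, 45.5 and 44.4 CPM in the WT and 37.4, 43.2 and 39.6 CPM in the KO libraries, and the difference did not pass the test (log2 fold change -0.27, adjusted p 0.349, edgeR). A count over the whole gene does not show whether exon 2 is missing, so it does not check the knockout.

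Collectrin is a membrane protein known as the partner that brings the SLC6 family transporters of neutral amino acids, SLC6A18 and SLC6A19 (B0AT1), to the brush border of the proximal tubule, and mice without it lose amino acids in the urine. At the same membrane, SLC3A1 (rBAT) and SLC7A9 (b0,+AT) form the heteromer that takes up cystine and dibasic amino acids, and defects of either cause cystinuria. SLC1A1 (EAAC1) takes up glutamate and aspartate. SLC3A2 (4F2hc) is the heavy chain of several heteromers of the basolateral membrane, among them that with SLC7A8 (LAT2), which exchanges neutral amino acids with the blood side.

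In the genome build GRCm38, *Cltrn* lies on chromosome X from 164088830 to 164118860 on the plus strand. *Slc6a18* (chromosome 13, 73661752 to 73678023) and *Slc6a19* (chromosome 13, 73679745 to 73704865) are neighbours on the minus strand. *Slc3a1* spans 85028376 to 85064236 on chromosome 17, and *Slc7a9* spans 35448796 to 35466036 on chromosome 7. *Slc3a2* (8706882 to 8723369) and *Slc1a1* (28835049 to 28913960) both lie on chromosome 19, and *Slc7a8* on chromosome 14 from 54722209 to 54781946. The upstream windows of *Cltrn* and *Slc3a1* are shown because these genes differ most plainly in where they were found: *Slc3a1* was almost absent outside the proximal tubule, whereas *Cltrn* was not. Both are from RefSeq on GRCm38.p6, plus strand, and end at the base before the RefSeq start or, for *Cltrn*, before an annotated exon that begins upstream of it, inside the longer gene model given above. Capitals in the second mark a direct repeat read by HNF4, a known regulator of brush border genes (CAAAGTCCA or its reverse TGGACTTTG).
Cltrn, chrX:164089937-164090153: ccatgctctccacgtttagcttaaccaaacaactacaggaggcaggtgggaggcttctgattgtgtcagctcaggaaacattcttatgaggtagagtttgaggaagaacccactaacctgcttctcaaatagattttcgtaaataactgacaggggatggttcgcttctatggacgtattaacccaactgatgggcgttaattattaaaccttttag
Slc3a1, chr17:85028097-85028346: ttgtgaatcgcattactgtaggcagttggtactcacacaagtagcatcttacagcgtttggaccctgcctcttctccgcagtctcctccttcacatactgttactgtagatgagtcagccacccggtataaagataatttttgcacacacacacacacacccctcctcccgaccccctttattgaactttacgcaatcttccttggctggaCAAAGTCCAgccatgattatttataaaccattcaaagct
The *Slc3a1* window holds 1 HNF4 repeat, 39 bases before the start, and 0.384% of 32851 windows of its 250 bases do. Among the 8 genes, 6 had a RefSeq window with upstream bases left before any annotated exon. The windows of *Cltrn*, *Slc6a19*, *Slc7a8*, *Slc7a9* and *Slc1a1* do not hold these letters on either strand, and TGATGNAA, an element read by ATF4 and C/EBP proteins, was in none of the 6. A match is a description of letters and not a shown binding site. *Hnf4a* stood at 346, 477 and 316 CPM in the WT and 409.6, 658 and 404 CPM in the KO proximal convoluted tubule (PCT), and its WT mean was at most 0.734 CPM in the loop of Henle, distal convoluted tubule, connecting tubule, principal and intercalated cells. It was tested in the PCT and did not pass (adjusted p 0.966, edgeR).

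In WT libraries *Cltrn* was highest by far in the proximal convoluted tubule (PCT, a class marked by *Slc34a1*, *Lrp2* and *Miox*), where it stood at 1169, 1653 and 1021 CPM. The KO libraries held 614, 1215 and 1447 CPM, and the lowest of these, KO 1, rests on 15 *Cltrn* UMIs in 26 barcodes. The groups overlapped (fitted log2 fold change -0.22, SE 0.45). The sign turned to 0.37 in the libraries without *Xist* and to 0.11 without KO 1, so no direction can be read in the PCT.

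Next in WT came the distal convoluted tubule (DCT, marked by *Slc12a3* and *Pvalb*), with 91.2, 70.2 and 87.7 CPM, which did not overlap with the PCT above it. The thin limb and parietal class (DLH) followed with 37.5, 18.9 and 42.0 CPM, in 30 to 79 barcodes per library. The thick limb of the loop of Henle (LOH, marked by *Slc12a1* and *Umod*) held 15.1, 17.1 and 16.4 CPM and the connecting tubule (CNT, marked by *Calb1*, *Trpv5* and *S100g*) 11.1, 11.2 and 16.5 CPM. The lowest DLH library (18.9 CPM) lay just above the highest of LOH (17.1 CPM), and the ranges of LOH and CNT overlapped. Intercalated cells (IC) held 2.21, 2.70 and 4.72 CPM and principal cells (PC) 3.14, 3.63 and 1.74 CPM, ranges that overlapped each other. Podocytes, which should lack the gene, held 0.488, 1.64 and 4.08 CPM, which overlapped with PC. T and NK cells, at 12.8, 8.78 and 4.74 CPM, overlapped with CNT. Of the WT *Cltrn* UMIs, 36.4% were in the PCT and 35.2% in a small cluster set aside from it, against 17.3% in DCT, 5.99% in LOH and 2.64% in CNT.

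That small cluster, with the leading genes *Kap*, *Slc7a13* and *Acsm2*, held 174 barcodes, 166 of them from WT 3. It stood at 1836 CPM *Cltrn*, 495 CPM *Slc6a18* and 412 CPM *Slc3a1* in WT 3. Because 1 library made nearly all of it, it was kept out of the PCT and of the comparisons by class. The sums over all barcodes include it, and an alternative fit added it to the PCT. A second cluster, led by *Nos1*, *Pappa2* and *Ptgs2*, was left unnamed.

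**Figure D1:**
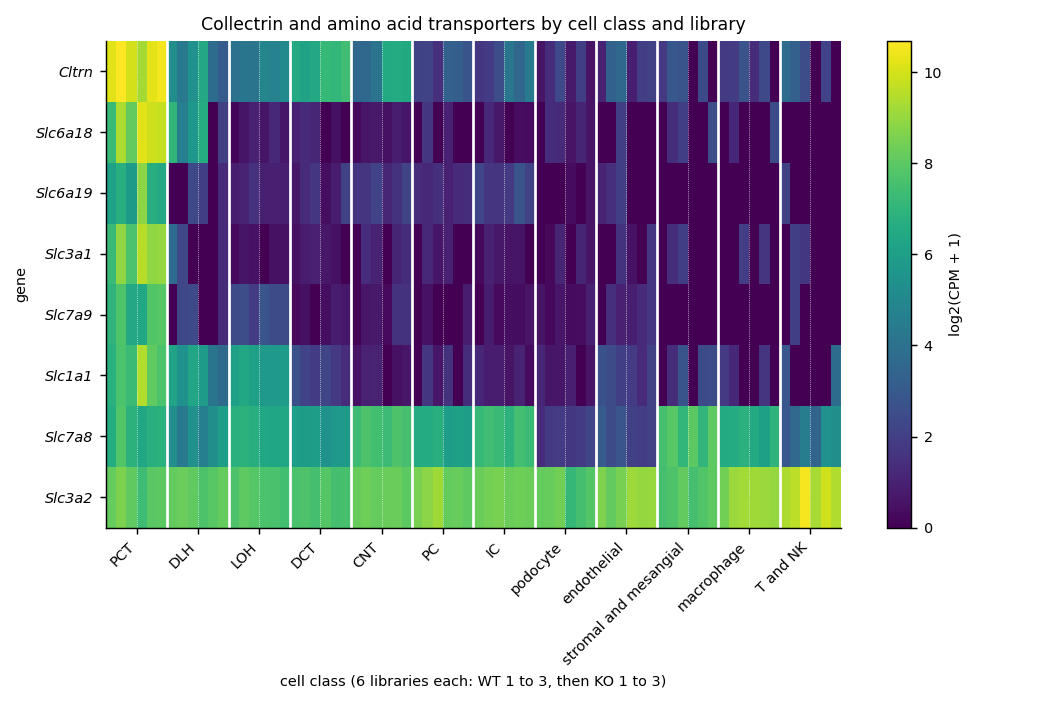
Heat map of log2(CPM + 1) for the 8 genes (rows) in each cell class (columns), with WT 1 to 3 and KO 1 to 3 side by side within a class. *Slc6a18*, *Slc6a19*, *Slc3a1* and *Slc7a9* are each brightest in the PCT columns, and *Slc6a18* is also seen in DLH. *Cltrn* reaches into DCT and, in KO, CNT, and *Slc3a2* is present in every class.

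The description of *Cltrn* across WT and KO begins with the CNT, the contrast that chose it. There the KO libraries stood at 91.2, 95.3 and 88.0 CPM against 11.1, 11.2 and 16.5 CPM in WT libraries, a mean of 91.5 ± 3.66 against 12.9 ± 3.08 CPM (± SD, n = 3 each). All KO libraries were above all WT libraries, and the lowest KO library held over 5 times the highest WT library (fitted log2 fold change 2.78, SE 0.16). In the CNT class 3.5% of 11338 tested genes were called, and since the gene was selected on this contrast nothing is read from that share. The value was 3.86 when only barcodes with at most 30% mitochondrial UMIs were kept. The counts behind the levels were 188 *Cltrn* UMIs in WT and 1014 in KO, from 1196, 1319 and 998 WT and 1192, 720 and 930 KO barcodes.

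In DCT, where WT libraries held 91.2, 70.2 and 87.7 CPM, the KO libraries held 143, 134 and 168 CPM (log2 fold change 0.86, SE 0.13). In LOH the levels were 15.1, 17.1 and 16.4 CPM in WT libraries and 28.1, 25.4 and 34.1 CPM in KO libraries (log2 fold change 0.86, SE 0.14). The IC held 2.21, 2.70 and 4.72 CPM in WT libraries and 17.2, 10.6 and 19.6 CPM in KO libraries (log2 fold change 2.30, SE 0.33). In each of these 3 classes, as in CNT, all KO libraries lay above all WT libraries. PC showed the same order at a lower level, 3.14, 3.63 and 1.74 CPM against 8.72, 8.45 and 5.76 CPM, which fell below the count filter. Podocytes (0.488, 1.64 and 4.08 CPM in WT libraries, 0.694, 2.95 and 0.462 CPM in KO libraries) and endothelial cells (1.09, 9.11 and 10.998 and 0.866, 2.85 and 3.37 CPM) overlapped between the groups. In DLH the KO libraries spread from 7.54 to 85.9 CPM and overlapped with WT. *Cltrn* was thus higher in KO in CNT, DCT and LOH and not in the PCT, the class with the most of it in WT, where the sign depended on the library.

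The CNT marker genes were also found in the neighbouring classes. In IC the 5 CNT markers summed to 28725, 28652 and 24847 CPM in WT libraries and 13861, 11389 and 26337 CPM in KO libraries, which was 29.6% to 34.0% and 17.8% to 28.2% of their level in CNT of the same library. *Cltrn* in IC stood at 19.9% to 28.6% of its CNT level in WT libraries and at 11.2% to 22.3% in KO libraries. In 5 of the 6 libraries its share was below that of the markers, and in KO 1 they were 18.9% and 18.6%. The part of CNT RNA in the IC levels was not tested, so they are not read as those of a separate class. In DCT the marker share was 11.96% to 22.0% over the 6 libraries and the *Cltrn* share 141% to 822%. In LOH these were 5.11% to 8.94% and 26.7% to 152%, and in PC 1.90% to 5.79% and 6.55% to 32.4%.

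The spread over classes differed too. In KO the PCT held 21.3% of the *Cltrn* UMIs, DCT 30.8%, CNT 23.5%, LOH 16.3% and IC 5.32%. In the sum over all barcodes, *Cltrn* stood at 33.3, 69.8 and 104 CPM in WT libraries and 40.9, 48.1 and 68.6 CPM in KO libraries, and these ranges overlapped. That sum also depends on how many PCT barcodes a library held, which was 47, 578 and 425 in WT and 26, 156 and 121 in KO. It further includes the cluster set aside from the PCT, with 166 barcodes of WT 3 and 2506 WT *Cltrn* UMIs.

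**Figure D2:**
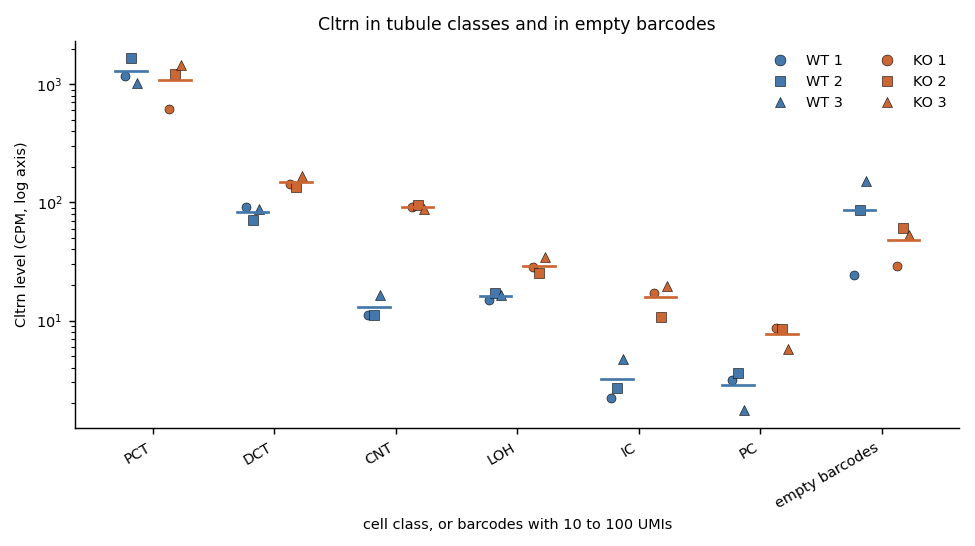
Level of *Cltrn* (CPM, log axis) in each tubule class and in empty barcodes, with 1 point per library and WT and KO side by side. In CNT the KO points lie near 90 CPM above WT points of 11.1 to 16.5 CPM, in DCT, LOH and IC the KO points are also above the WT points, and in the PCT the groups overlap.

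Within these classes, all KO libraries lay above all WT libraries in each of the 10 single clusters of CNT, DCT, IC and LOH. The CNT class was made of a large cluster with *Trpv5* and *Scnn1g* among its leading genes and a smaller one led by *Calb1* that also has the DCT genes *Slc12a3* and *Sgms2* among its leading genes. The first held 6.98, 5.75 and 7.91 CPM in WT libraries and 93.2, 97.0 and 82.8 CPM in KO libraries, and the second 19.1, 24.3 and 29.1 CPM and 80.4, 88.2 and 106 CPM. WT levels were thus lower in the cluster without DCT genes, while the KO levels of both were between 80.4 and 106 CPM. The deeper of the DCT clusters held 97.9, 74.7 and 89.0 CPM in WT libraries and 151, 137 and 173 CPM in KO libraries. Among IC, the cluster led by *Slc26a4*, a gene of type B cells, held 1.49, 2.99 and 4.61 CPM in WT libraries and 8.76, 9.14 and 18.5 CPM in KO libraries, and the cluster led by *Slc4a1*, a gene of type A cells, 2.56, 1.47 and 1.54 CPM and 25.4, 10.2 and 17.6 CPM. Of the LOH clusters, the shallow one whose leading genes were hemoglobin genes had KO libraries at 47.1, 30.3 and 65.3 CPM, of which KO 2 was only just above the highest WT library (13.5, 29.994 and 25.1 CPM).

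**Figure D3:**
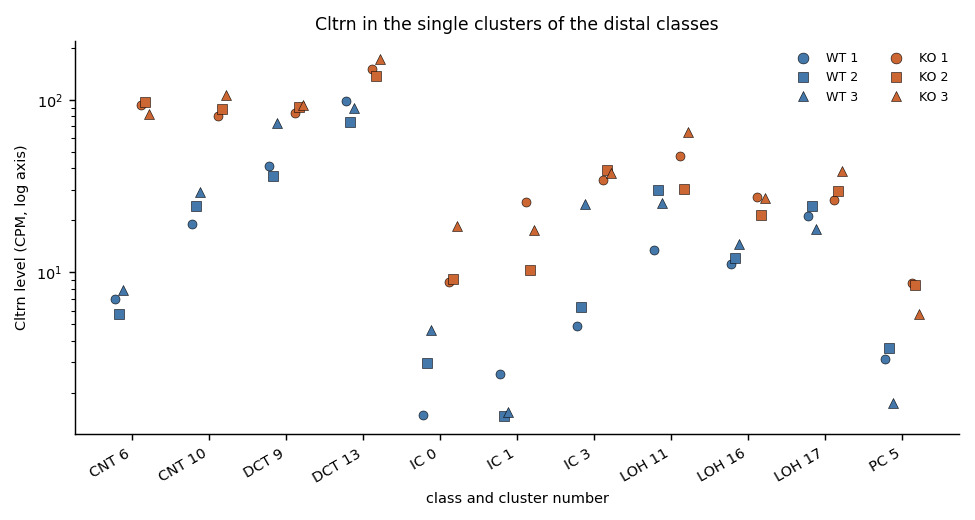
Level of *Cltrn* (CPM, log axis) in the single clusters of CNT, DCT, IC and LOH, with 1 point per library, WT and KO side by side. KO points lie above WT points in each cluster shown, most widely in the CNT cluster with WT levels of 5.75 to 7.91 CPM.

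The share of cells with the transcript showed the same order. To set barcodes of unlike depth on 1 scale, each was thinned to 1000 nuclear-encoded UMIs and shallower barcodes were left out (250 to 433 per WT and 187 to 293 per KO library in CNT). A *Cltrn* UMI was then found in 0.611, 1.13 and 1.34% of CNT barcodes in WT and 7.01, 8.63 and 6.37% in KO. Without thinning, the shares were 3.18, 3.49 and 5.71% and 18.4, 18.8 and 20.3%, at median depths of 2059.5 to 3060 UMIs in WT and 2272 to 3174 in KO. In podocytes, taken as the level that free RNA gives (median depth 2210.5 to 4607 UMIs), the thinned share was 0.111, 0.212 and 0.556% in WT and 0.144, 0.119 and 0.193% in KO. The DCT shares were 8.86, 5.94 and 8.21% in WT and 11.7, 10.5 and 14.6% in KO, and those of LOH 1.59, 2.09 and 1.74% and 3.30, 2.49 and 3.28%, without overlap in either class. In IC, with 0.152, 0.158 and 0.515% in WT and 0.912, 0.425 and 1.88% in KO, the ranges overlapped. All WT libraries and KO 2 were within the podocyte range, which is read as background, and KO 1 was within the WT range of endothelial cells.

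Barcodes that hold no cell also carried *Cltrn*, so the RNA of the PCT was followed beside it in each class. Such empty barcodes of 10 to 100 UMIs held 24.1, 85.4 and 150.5 CPM *Cltrn* in WT and 28.9, 61.1 and 52.7 CPM in KO libraries, and the groups overlapped. Of 13 proximal tubule genes (*Kap* among them), 8, 0 and 2 were at 0 in CNT of WT 1, 2 and 3 and 9, 5 and 5 in KO 1, 2 and 3. The summed level of the 12 genes without *Kap* in CNT was 14.0, 41.5 and 36.4 CPM in WT libraries and 40.4, 62.9 and 42.5 CPM in KO libraries. For LOH this sum was 17.1, 50.1 and 41.2 CPM in WT libraries and 21.6, 30.6 and 24.5 CPM in KO libraries, and for DCT 7.82, 43.9 and 34.2 and 3.73, 18.5 and 17.9 CPM. The sum overlapped between the groups in all 3 classes, whereas *Cltrn* did not, but in CNT 2 of the 3 KO libraries were above all WT libraries. *Lrp2*, 1 of the 12 genes, was itself higher in CNT of KO and made up most of the sum there in each KO library. The sum in CNT and its ratio to *Cltrn* therefore also follow *Lrp2*, which is among the PCT markers of the filter below as well. The ratio of *Cltrn* to the sum was 0.0269 to 0.164 in the PCT, 0.0676 to 0.733 in empty barcodes, 0.270 to 0.791 in CNT of WT and 1.52 to 2.25 in CNT of KO. When CNT barcodes with any UMI of a PCT marker were left out, *Cltrn* still stood at 11.3, 9.30 and 16.3 CPM in WT libraries and 72.3, 80.1 and 78.4 CPM in KO libraries (log2 fold change 2.60). Without the libraries that carry *Xist*, the log2 fold change of *Cltrn* was 2.69 in CNT, 0.78 in DCT, 0.94 in LOH and 2.14 in IC.

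The genes around *Cltrn* were read next. Within 500 kb the annotation lists 17 other genes, 12 of them protein coding. In CNT 7 were tested and 2 passed, where 3.5% of 11338 tested genes did. *Car5b*, a mitochondrial carbonic anhydrase 60.8 kb away, was higher in KO (48.6, 40.2 and 44.3 CPM in WT libraries, 75.2, 70.6 and 62.1 CPM in KO libraries, log2 fold change 0.60, adjusted p 0.0152, edgeR). *Vegfd*, a growth factor of lymphatic vessels, was lower (71.4, 51.8 and 73.4 against 22.8, 27.0 and 46.3 CPM, log2 fold change -1.07, adjusted p 0.0305, edgeR). The call of *Vegfd* was kept in 2 of the 6 fits that left out 1 library and that of *Car5b* in 4. *Asb11*, a substrate adaptor of a ubiquitin ligase 318 kb away, was higher in LOH (log2 fold change 1.42, adjusted p 0.00905, edgeR) and in DCT (log2 fold change 2.04, adjusted p 0.000528, edgeR). It was kept in all 6 fits without 1 library in both. No other tested neighbour passed in LOH or DCT, where 4.68% and 2.35% of all tested genes did.

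The transporters, which the rule did not choose on a value, were tested in each class. They were chosen with earlier results of these data known, so the share called is not that of a blind choice. Over 12 classes there were 32 tests of the 7 genes, of which 4 were called at an adjusted p under 0.05, all lower in KO, and 10 had an unadjusted p under 0.05. Of these tests 12.5% were thus called, and the share of all tested genes that was called ranged over the classes from 0.0227% in T and NK cells to 4.68% in LOH. The calls were *Slc7a8* in LOH and PC and *Slc3a2* in PC and podocytes. In the sum over all barcodes 0 of the 7 were called, with 0 at an unadjusted p under 0.05, against 0.331% of 15732 genes. By edgeR with the filter on low counts, no brush border transporter was called in any class with all 6 libraries, while without that filter *Slc1a1* was called lower in LOH (adjusted p 0.0249). In the 4 libraries without *Xist*, *Slc6a18* and *Slc3a1* were called higher in the PCT, with the values given for each gene.

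**Figure D4:**
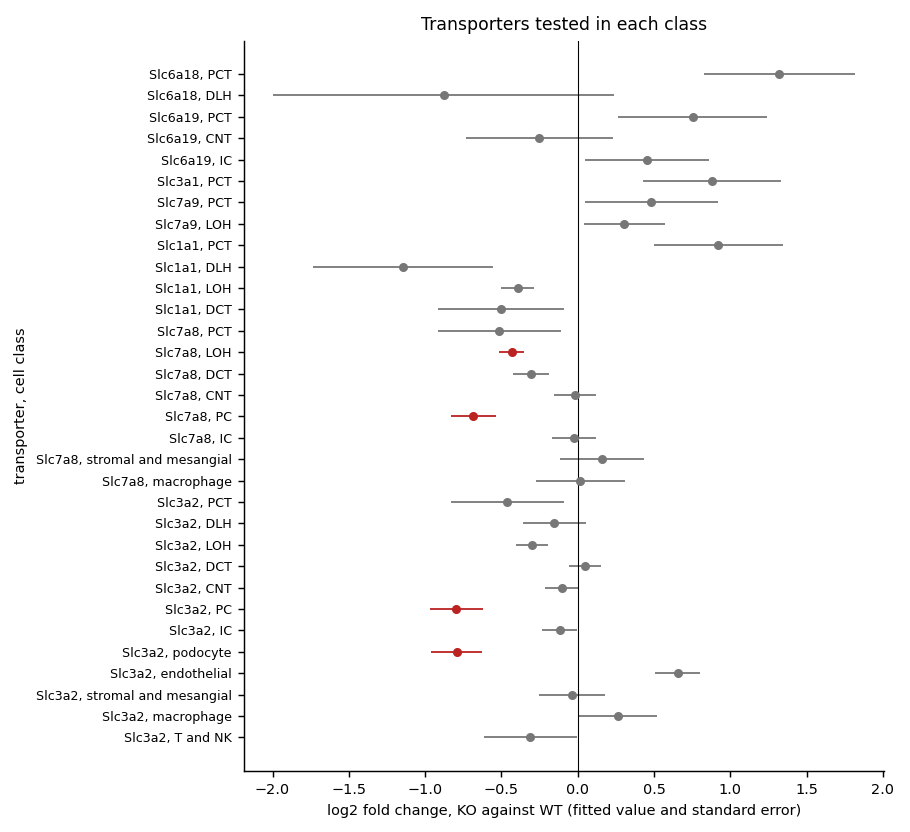
Fitted log2 fold change of KO against WT with its standard error for each of the 32 tests of a transporter in a class. The 4 calls, *Slc7a8* in LOH and PC and *Slc3a2* in PC and podocytes, lie to the left of 0, and the widest error bars are those of the PCT and DLH.

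Both partners of collectrin had their highest level among the named classes in the PCT in every library. *Slc6a18*, a transporter of glycine and other neutral amino acids in mouse kidney, stood there at 145, 657 and 279.6 CPM in WT libraries and 1188, 952 and 873 CPM in KO libraries. Every KO library was above every WT library, but the difference did not pass the test (log2 fold change 1.32, SE 0.50, adjusted p 0.398, edgeR, with 0.5% of 5403 tested genes called in the PCT). It was called higher in 1 of the 6 fits without 1 library, that without WT 2 (log2 fold change 2.13, adjusted p 0.00702, edgeR), and in the libraries without *Xist* (log2 fold change 2.11, adjusted p 0.00866, edgeR). WT 2 held 578 of the 1353 PCT barcodes. The summed level of 12 PCT markers in this class was 7137, 23469 and 9567 CPM in WT libraries and 22813, 19860 and 17163 CPM in KO libraries, so WT 1 and WT 3, the WT libraries of those fits, were the lowest. The 5 CNT markers summed there to 2206, 4907 and 12771 CPM in WT libraries and 1884, 1336 and 1413 CPM in KO libraries. *Slc5a2*, a gene of the early proximal tubule, was lower in this class in KO. The part of any of these in the differences of *Slc6a18* and *Slc3a1* was not tested. The cluster set aside, nearly all from WT 3, held 39.4% of the WT *Slc6a18* UMIs and 42.6% of the WT *Slc3a1* UMIs. Its part in the fits without WT 2 was not tested. Outside the PCT *Slc6a18* reached 125, 22.7 and 50.4 CPM in DLH of WT and 97.8, 0 and 3.02 CPM in DLH of KO, ranges that overlapped (adjusted p 0.874, edgeR). In LOH, DCT and CNT no library held over 1.40 CPM.

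*Slc6a19*, the main sodium-coupled transporter of neutral amino acids, held 69.2, 104 and 55.2 CPM in the PCT of WT and 451, 102 and 87.5 CPM in that of KO. KO 1 alone was far above the rest, and its level rests on 11 UMIs. The groups overlapped (log2 fold change 0.75, SE 0.49, adjusted p 0.857, edgeR). IC (3.87, 2.12 and 2.16 CPM in WT libraries, 2.57, 5.86 and 3.31 CPM in KO libraries) and CNT (2.09, 2.12 and 3.43 and 1.23, 1.93 and 3.54 CPM) were low and overlapped. With their many barcodes, these classes still held much of the *Slc6a19* RNA. The PCT held 47.4% of its WT and 37.6% of its KO UMIs. IC held 12.9% and 26.8%, CNT 11.1% and 12.4%, and LOH 10.2% and 10.8%. In the CNT of KO, where *Cltrn* stood at 88.0 to 95.3 CPM, the levels of *Slc6a18* (0.411, 0.771 and 0.545 CPM) and *Slc6a19* stayed within or near their WT ranges.

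Both subunits of the cystine transporter likewise had their highest level among the named classes in the PCT. *Slc3a1* stood at 152, 484 and 199.7 CPM in WT libraries and 737, 482 and 513 CPM in KO libraries in the PCT, where WT 2 reached the KO range (log2 fold change 0.88, SE 0.45, adjusted p 0.686, edgeR). It too was called higher without WT 2 (log2 fold change 1.61, adjusted p 0.0251, edgeR) and in the libraries without *Xist* (log2 fold change 1.54, adjusted p 0.0228, edgeR). *Slc7a9* stood at 124, 215 and 85.6 CPM in WT libraries and 81.9, 219 and 238 CPM in KO libraries (log2 fold change 0.48, SE 0.44, adjusted p 0.950, edgeR). In LOH, *Slc7a9* was still found in every library, at 4.47, 4.84 and 2.66 CPM in WT libraries and 5.98, 4.50 and 4.41 CPM in KO libraries, while *Slc3a1* was at most 0.511 CPM there. Over 72 sums of class and library, *Slc3a1* and *Slc7a9* had a Pearson correlation of 0.88 on log2(CPM + 1), a description over points that share libraries and depth.

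*Slc1a1*, the glutamate and aspartate transporter, had its highest level among the named classes in the PCT in every library, and LOH, with more barcodes, held 68.0% of its WT and 80.4% of its KO UMIs. The LOH levels were 65.3, 83.1 and 66.7 CPM in WT libraries and 53.8, 52.3 and 57.1 CPM in KO libraries. No KO library reached the WT range, yet the difference missed the threshold (log2 fold change -0.39, SE 0.11, adjusted p 0.0719, edgeR, with 4.68% of 11893 genes called). It passed when no filter on low counts was used (log2 fold change -0.39, adjusted p 0.0249, edgeR), and in 0 of the 6 fits without 1 library. In the PCT the order of the groups was the other way, 111, 202 and 156 CPM in WT libraries and 696, 266 and 199 CPM in KO libraries, with the lowest KO library just under the highest of WT (log2 fold change 0.92, SE 0.42, adjusted p 0.579, edgeR). DLH held 75.0, 41.6 and 79.8 CPM in WT libraries and 59.3, 17.1 and 12.1 CPM in KO libraries and did not pass (adjusted p 0.631, edgeR, with 0.044% of genes called). In CNT, PC, IC and podocytes no library held over 2.27 CPM.

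The basolateral pair was more widely spread. *Slc7a8* (LAT2), the exchanger of neutral amino acids, was highest in the CNT (158, 209 and 175 CPM in WT libraries), the stromal and mesangial class (187, 242 and 134 CPM) and IC (144, 169 and 145 CPM), which overlapped each other. The PCT (96.8, 218 and 116 CPM), LOH (109, 116 and 107 CPM), PC (94.7, 94.3 and 104 CPM) and macrophages (90.6, 94.0 and 112 CPM) formed a next group whose neighbours overlapped. DCT followed at 63.6, 59.2 and 61.9 CPM, and podocytes and endothelial cells held no more than 7.66 CPM in any library. The KO libraries of DCT held 42.9 to 53.0 CPM, all below WT, and the gene was not called there. In the sum over all barcodes, KO libraries (79.4 to 96.7 CPM) also lay below WT libraries (98.1 to 110 CPM) without a call. The KO libraries of CNT (158, 207 and 187 CPM) and IC (120.3, 180.2 and 153 CPM) overlapped with WT, with adjusted p values of 0.984 and 0.968 (edgeR).

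In LOH, *Slc7a8* stood at 109, 116 and 107 CPM in WT libraries and 80.8, 79.9 and 84.1 CPM in KO libraries. The groups did not overlap and the gene was called lower (log2 fold change -0.43, SE 0.08, adjusted p 0.0128, edgeR). The thinned share of LOH barcodes with a UMI was 10.7, 10.5 and 10.4% in WT and 7.10, 6.42 and 8.25% in KO, again without overlap. The call was kept in 5 of 6 fits without 1 library and lost without KO 1 (adjusted p 0.0618, edgeR), in the libraries without *Xist* (log2 fold change -0.38, adjusted p 0.141, edgeR) and at a mitochondrial limit of 30% (log2 fold change -0.11, adjusted p 0.98, edgeR). With the replicate number as a block the adjusted p was 0.0529 (edgeR).

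In PC, *Slc7a8* stood at 94.7, 94.3 and 104 CPM in WT libraries and 60.1, 66.2 and 62.6 CPM in KO libraries. These did not overlap either, and the gene was called lower (log2 fold change -0.68, SE 0.15, adjusted p 0.0312, edgeR, with 2.38% of 9596 genes called). The share of PC barcodes with a UMI after thinning, however, was 7.48, 7.63 and 7.75% in WT and 7.24, 7.56 and 8.81% in KO, ranges that overlapped. When classes were built from marker scores in place of clusters, the value turned to 0.12 (adjusted p 0.83, edgeR), and only 1 of 6 fits without 1 library, that without WT 1, kept the call. In the libraries without *Xist* the value was -0.67 (adjusted p 0.241, edgeR). The PC class held 403, 378 and 386 barcodes in WT and 192, 159 and 263 in KO. Its summed CNT markers stood at 3194, 4879.6 and 2565 CPM in WT libraries and 1680.5, 1219 and 1925 CPM in KO libraries, and *Slc7a8* is higher in CNT than in PC: the part of this in the difference was not tested.

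The effects in different classes were compared directly, a test added after the data were seen. For *Slc7a8* the KO effect in PC minus that in CNT was -0.67 on the log2 scale (adjusted p 0.0421, edgeR with the mouse as a block, with 1.41% of genes called). It was kept in 1 of 6 fits without 1 library, with adjusted p values from 0.0196 to 0.163 by edgeR. For LOH minus CNT the difference was -0.42 and missed the threshold (adjusted p 0.0619, edgeR, with 3.63% of genes called).

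*Slc3a2* (4F2hc), the heavy chain shared by many exchangers and needed to bring them to the cell surface, was found in every class. Among the tested classes it was highest in WT in T and NK cells (662, 793 and 1499 CPM), where KO libraries held 632, 974 and 679 CPM and overlapped (adjusted p 0.998, edgeR, with 0.0227% of genes called). Macrophages (341, 536 and 587 CPM) and PC (370.1, 459.8 and 570.1 CPM) came next and overlapped with each other. Macrophages of KO held 569, 549 and 513 CPM (adjusted p 0.86, edgeR, with 0.0896% of genes called). In the stromal and mesangial class, WT libraries ranged from 187.2 to 276 CPM and KO libraries from 185.1 to 260 CPM, and with 0.0665% of genes called there, neither *Slc3a2* nor *Slc7a8* passed. DCT held 195, 208 and 187 CPM in WT libraries and 231, 185 and 189 CPM in KO libraries, and in both groups its range overlapped with that of LOH.

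In podocytes, the cells of the glomerular filter, *Slc3a2* stood at 285, 299 and 342 CPM in WT libraries and 139, 185 and 227 CPM in KO libraries. All KO libraries were below all WT libraries, and the gene was called lower (log2 fold change -0.79, SE 0.17, adjusted p 0.0432, edgeR, with 1.8% of 10427 genes called). The share of podocyte barcodes with a UMI after thinning was 23.3, 25.4 and 25.5% in WT and 12.1, 15.5 and 16.6% in KO, without overlap. Median depth in podocytes was 3714 to 4607 UMIs in WT and 2210.5 to 2965 in KO. DESeq2 gave an adjusted p of 0.000537, whereas only 1 of 6 edgeR fits without 1 library, that without KO 3, kept the call (adjusted p 0.0228), and the others gave 0.0888 to 0.146. In the libraries without *Xist* the value was -0.63 (adjusted p 0.148, edgeR).

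In PC, *Slc3a2* stood at 370.1, 459.8 and 570.1 CPM in WT libraries and 285, 291 and 261 CPM in KO libraries, again without overlap, and was called lower (log2 fold change -0.80, SE 0.17, adjusted p 0.0327, edgeR). After thinning, the share of barcodes with a UMI was 24.1, 29.4 and 34.9% in WT and 26.3, 18.5 and 24.9% in KO, and these ranges overlapped. The call was kept in the fit without WT 1 and lost in the other 5 (adjusted p 0.0895 to 0.122, edgeR), and with classes from marker scores the value was -0.40 (adjusted p 0.204, edgeR). In the libraries without *Xist* it was -0.82 (adjusted p 0.223, edgeR). Of 14 genes induced by tissue dissociation, 2 were higher in PC of KO, *Jun* (996, 1222 and 992 against 2107, 1735 and 2252 CPM) and *Socs3* (25.1, 79.8 and 52.7 against 224, 199.9 and 225 CPM), and the median log2 fold change of the 14 was 0.47 against -0.0016 over all genes of the class. Their part in the *Slc3a2* difference was not tested.

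Endothelial cells showed the opposite order. *Slc3a2* stood there at 395, 278 and 358 CPM in WT libraries and 564, 516 and 521 CPM in KO libraries, with all KO libraries above all WT libraries, and the difference missed the threshold (log2 fold change 0.65, SE 0.15, adjusted p 0.0982, edgeR, with 0.409% of 8796 genes called). DESeq2 called it (adjusted p 0.0436). The thinned share was 30.4, 25.1 and 28.3% in WT and 40.2, 37.9 and 39.1% in KO, without overlap. The KO effect in endothelial cells minus that in podocytes was 1.51 on the log2 scale (adjusted p 8.33e-05, edgeR with the mouse as a block, with 1.5% of genes called), and it was kept in all 6 fits without 1 library (adjusted p at most 0.00564). In the libraries without *Xist* it was 1.12 (adjusted p 0.000357, edgeR). Endothelial cells minus PC gave 1.47 (adjusted p 0.000603, edgeR, with 1.3% of genes called), also kept in all 6 (adjusted p at most 0.00394) and in the libraries without *Xist* (1.30, adjusted p 0.0242, edgeR). The classes differ in how the groups are filled: podocytes held 978, 1078 and 811 barcodes in WT and 1670, 1021 and 591 in KO, and endothelial cells 621, 621 and 697 and 1538, 1005 and 687.

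**Figure D5:**
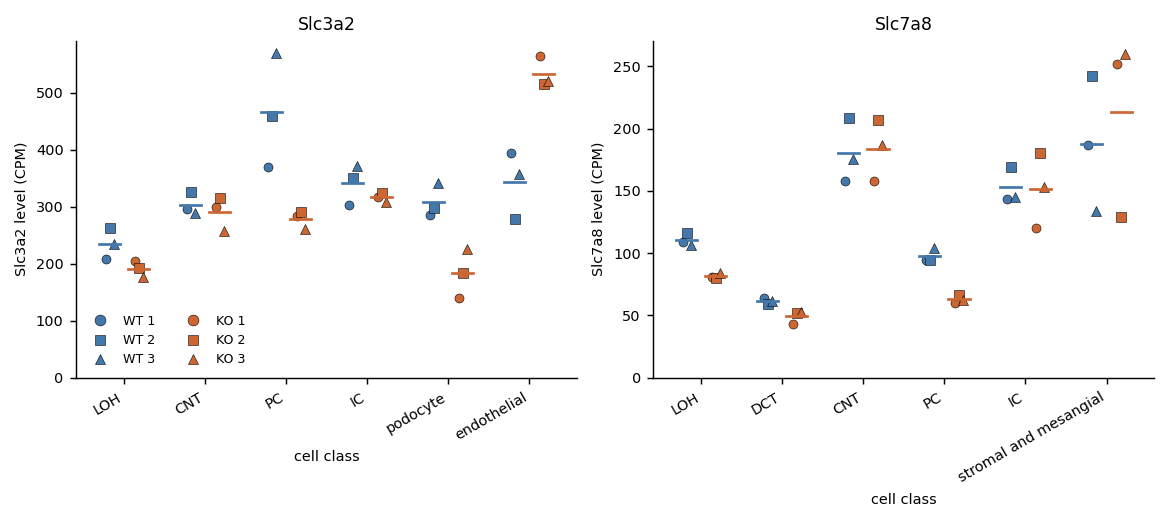
Levels of *Slc3a2* (first panel) and *Slc7a8* (second panel) in CPM by cell class, axis from 0, with 1 point per library and WT and KO side by side. *Slc3a2* points of KO lie below those of WT in podocytes and PC and above them in endothelial cells, and *Slc7a8* points of KO lie below those of WT in LOH and PC and among them in CNT and IC.

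For *Slc3a2*, the LOH levels of 208, 263 and 235 CPM in WT libraries and 204, 193 and 176 CPM in KO libraries did not overlap but did not pass (log2 fold change -0.30, adjusted p 0.141, edgeR). Those of the PCT, 284, 388 and 274 and 164, 247 and 253 CPM, did not overlap and did not pass either (log2 fold change -0.46, SE 0.37, adjusted p 0.924, edgeR). CNT (296, 326 and 288 CPM in WT libraries, 300.0, 315 and 257 CPM in KO libraries) and IC (303, 349.8 and 372 and 317, 324 and 309 CPM) overlapped. Empty barcodes held 283, 314 and 319 CPM in WT libraries and 264, 265 and 222 CPM in KO libraries, all KO libraries below all WT libraries, the order seen in podocytes and PC and not in endothelial cells. Its part in the class differences was not tested.

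The patterns over classes were compared with those of 12900 genes, as Pearson correlations of log2(CPM + 1) over 72 sums of 12 classes and 6 libraries that share libraries and depth. *Cltrn* was most like *Dbi* (r = 0.86), *Pipox* (0.86), *Sult1c2* (0.86), *Akr7a5* (0.85) and *Mlxipl* (0.84). *Slc6a18* was most like *Slc47a1* (0.94), *Hnf4a* (0.93) and *Tmem174* (0.93), and *Slc6a19* like *Ly6g2* (0.91), *Slc18a1* (0.90) and *Ddc* (0.90). *Slc3a1* was closest to *Keg1* (0.97), *Eci3* (0.96) and *Spp2* (0.96), and *Slc7a9* to *Cndp1* (0.95), *Sypl2* (0.93) and *Mfsd4b5* (0.93). *Slc1a1* came closest to *Papss2* (0.92), *Nox4* (0.87) and *Nr1h4* (0.86). The basolateral genes had less close neighbours, *Tmem51* (0.80), *Gprc5c* (0.76) and *Gpi1* (0.75) for *Slc7a8* and *Dusp2* (0.82), *St8sia4* (0.81) and *Samsn1* (0.80) for *Slc3a2*. Among the 8, *Cltrn* correlated with *Slc6a19* at 0.77 and with *Slc6a18* at 0.69, and *Slc3a2* with *Slc7a8* at -0.18, although their proteins form a heteromer.

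For 37 further amino acid transport genes, 173 tests over the 12 classes gave 11 calls, 8 higher and 3 lower in KO. This is 6.36% of the tests, against 0.0227% to 4.68% of all genes called in a class. These genes too were chosen with earlier results of these data known. In the PCT, 15 of the 37 were tested and 1 was called, *Slc7a12*, an orphan relative of the heteromeric exchangers, at 6.92, 18.4 and 34.2 CPM in WT libraries and 1065, 317 and 199 CPM in KO libraries (log2 fold change 4.12, adjusted p 0.00907, edgeR). The call was lost in 1 of 6 fits without 1 library (adjusted p up to 0.109). The highest level, that of KO 1, comes from 26 barcodes. The median log2 fold change of the 15 was 0.53, against -0.05 over all genes of the class.

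In CNT, 19 were tested and 2 called. *Slc38a3* (SNAT3), the glutamine transporter of ammonia-forming cells, stood at 3.35, 5.22 and 3.21 CPM in WT libraries and 31.6, 50.9 and 17.7 CPM in KO libraries (log2 fold change 2.99, adjusted p 0.000303, edgeR). *Slc1a3* (EAAT1), a glutamate and aspartate transporter, stood at 23.9, 26.8 and 19.5 CPM in WT libraries and 5.75, 6.17 and 5.45 CPM in KO libraries (log2 fold change -2.06, adjusted p 7.29e-05, edgeR). *Slc38a3* thus rose where *Cltrn* was higher, and *Slc1a3* fell. Both kept their calls in all 6 fits without 1 library. The median of the 19 was 0.02, against 0.00 over all genes.

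*Slc38a3* was also higher in LOH (0.218, 0.892 and 0.320 CPM in WT libraries, 2.72, 3.31 and 2.59 CPM in KO libraries, log2 fold change 2.61, adjusted p 0.0108, edgeR) and in IC (2.03, 3.85 and 1.97 and 10.3, 12.2 and 6.14 CPM, log2 fold change 1.85, adjusted p 0.0231, edgeR, with 1.42% of 11386 genes called). *Slc1a3* was lower in PC (20.9, 20.4 and 26.1 CPM in WT libraries, 1.94, 5.63 and 4.12 CPM in KO libraries, log2 fold change -2.60, adjusted p 0.00428, edgeR), where it was the only one of 15 tested genes called. It was lower in IC as well (7.92, 10.8 and 5.90 and 2.73, 2.66 and 2.36 CPM, log2 fold change -1.66, adjusted p 0.0218, edgeR). The IC calls of *Slc38a3* and *Slc1a3* were each kept in 2 of 6 fits without 1 library. Both genes differed in the same direction in CNT. The CNT markers stood in IC at 29.6% to 34.0% of their CNT level in WT libraries and 17.8% to 28.2% in KO libraries. In LOH the markers stood at 5.11% to 7.58% in WT libraries and 7.22% to 8.94% in KO libraries, and *Slc38a3* itself was near the floor there. The part of CNT RNA in these IC calls and in the LOH call of *Slc38a3* was not tested.

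*Slc38a1* (SNAT1), a glutamine transporter, was higher in DCT (12.4, 10.6 and 9.99 CPM in WT libraries, 46.7, 39.0 and 23.2 CPM in KO libraries, log2 fold change 1.73, adjusted p 0.00201, edgeR, with 2.35% of 10866 genes called) and in IC (25.2, 25.4 and 28.9 and 62.9, 89.2 and 50.3 CPM, log2 fold change 1.33, adjusted p 0.00589, edgeR). Both calls were kept in all 6 fits without 1 library. In LOH, *Slc1a5* (ASCT2), an exchanger of small neutral amino acids and glutamine, stood at 235, 271 and 252 CPM in WT libraries and 341, 301 and 374 CPM in KO libraries (log2 fold change 0.43, adjusted p 0.0366, edgeR). *Slc6a9* (GLYT1), a glycine transporter, stood at 8.95, 11.6 and 5.97 and 20.1, 13.2 and 16.6 CPM (log2 fold change 0.92, adjusted p 0.0477, edgeR). Each of these LOH calls was kept in 2 of 6 fits without 1 library. Counted per class, 3 of 20 tested genes were called in LOH, 1 of 20 in DCT and 3 of 20 in IC. In DLH, podocytes, endothelial, stromal and mesangial cells, macrophages and T and NK cells, 6, 17, 14, 7, 13 and 7 of the 37 were tested. Of these 0 were called, where 0.0227% to 1.8% of all tested genes were.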

How the data were processed

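The deposited files were gene by barcode matrices of UMI counts, 1 per library, made by the authors with the BD Rhapsody whole transcriptome pipeline on mm10, and the submitters' notes name Scanpy 1.8. Each library held 96382945 to 121198131 UMIs. The bounds on UMIs and genes are those of the study's methods, and the limit of 80% mitochondrial UMIs was set here. Barcodes with the top 6% of Scrublet scores per library were removed, since the automatic threshold marked 0.0098% to 1.05%, and the rest were clustered (scanpy 1.11.5, 2000 variable genes, 30 components, Leiden resolution 1). Clusters were named from marker genes. Scoring the same markers per barcode gave the same class for 83.2% of named barcodes.

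Counts were summed per library and class, and CPM were taken over nuclear-encoded UMIs. Classes with at least 20 barcodes in every library were tested with edgeR 4.0.16 (TMM, quasi-likelihood, two-sided, filterByExpr with a minimum count of 10, Benjamini-Hochberg over all genes of a class, threshold 0.05). DESeq2 1.42.0 was an alternative. The p-values cover the spread between mice. Members and gene lists were chosen with earlier results of these data known. Named from the lists were the 3 genes per class with the largest absolute log2 fold change among those called. Correlations of same-numbered deviations in CNT were -0.10, -0.15 and 0.02, with 0.23 as the highest between unlike numbers. In the sum over all barcodes they were 0.35, -0.05 and 0.33, again with 0.23 as the highest between unlike numbers. These values do not settle whether replicate numbers pair the libraries. The tests between classes, the cluster made almost only of 1 library and the totals with mitochondrial UMIs were added after the data were seen. Some genes of the lists and around *Cltrn* are not reported here.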

Additional observations from a re-analysis of the deposited data

Results flagged for a closer look

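The KO effect on *Slc3a2* differed between classes in a direct test, edgeR with the mouse as a block. Endothelial cells minus podocytes gave 1.51 on the log2 scale and endothelial cells minus principal cells 1.47. In 3 of 3 KO libraries the gene was above all WT libraries in endothelial cells and below all of them in podocytes and in principal cells.

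The KO effect on *Slc7a8* in principal cells minus that in the connecting tubule was -0.67 on the log2 scale by the same test. The levels of *Slc7a8* in the connecting tubule overlapped between the groups, and those in principal cells did not. These comparisons were chosen after the data were seen.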

How the results depend on the processing

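Against 4 transporter calls, 2 were made with classes from marker scores, 6 with no filter on low counts, 5 with *Xist* as a block and 0 to 3 when 1 library was left out. Of the 11 calls among the further amino acid transport genes, the number was 3 at a mitochondrial limit of 30%, 31 with no filter on low counts and 7 to 17 when 1 library was left out. The *Cltrn* value of 2.78 in CNT was 3.09 at a mitochondrial limit of 50%, 3.86 at 30%, 2.41 with classes from marker scores and 2.66 to 3.02 when 1 library was left out. In 3 cases the sign turned. *Cltrn* in the PCT was 0.37 in the libraries without *Xist* and -0.59 to 0.11 when 1 library was left out (0.09 without WT 2 and 0.11 without KO 1). *Slc7a8* in the PCT was 0.075 in the libraries without *Xist* and -0.74 to 0.019 when 1 library was left out. *Slc7a8* in PC was 0.12 with classes from marker scores. The causes were not tested. With the replicate number as a block, 3 transporter calls and 10 list calls were made and *Cltrn* in CNT was 2.79. Whether the numbers pair the libraries is not settled. Few barcodes limit the PCT, with 26 to 578 per library, and DLH, with 30 to 79.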

Other observations

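Other genes of amino acid handling and of the brush border were read in the same fits. *Asns*, which makes asparagine from glutamine and is a known target of ATF4, was higher in KO in LOH (4.04, 6.88 and 6.18 CPM in WT libraries, 12.1, 14.2 and 10.8 CPM in KO libraries, log2 fold change 1.12, adjusted p 0.017, edgeR), in DCT (4.94, 7.02 and 5.99 and 14.0, 14.5 and 19.1 CPM, log2 fold change 1.42, adjusted p 0.00717, edgeR) and in CNT (7.54, 16.4 and 11.1 and 29.8, 26.2 and 25.3 CPM, log2 fold change 1.17, adjusted p 0.0112, edgeR). It was the only one of 13 genes of the amino acid response called in these classes, of which 9, 9 and 10 were tested. Without 1 library its call was kept in 4 of 6 fits in LOH, 6 in DCT and 5 in CNT, and at a mitochondrial limit of 50% the DCT value was 0.63 (adjusted p 0.617, edgeR). *Psat1*, an enzyme of serine synthesis, was lower in PC (log2 fold change -1.45, adjusted p 0.0493, edgeR) and kept that call in 1 of 6 fits without 1 library.

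Among 12 brush border peptidases and scaffolds, *Ggt1*, which splits glutathione at the cell surface, was higher in DCT (53.5, 43.9 and 65.5 CPM in WT libraries, 97.1, 103 and 101 CPM in KO libraries, log2 fold change 0.89, adjusted p 0.00577, edgeR) and *Enpep*, a peptidase that cuts angiotensin II, was lower there (39.3, 42.5 and 31.4 and 13.1, 16.1 and 23.5 CPM, log2 fold change -1.08, adjusted p 0.018, edgeR). The call of *Ggt1* was kept in all 6 fits without 1 library and that of *Enpep* in 4. *Mme* (neprilysin) was higher in IC (704, 596 and 658 CPM in WT libraries, 1257, 1781 and 1139 CPM in KO libraries, log2 fold change 1.08, adjusted p 0.01, edgeR), kept in 5 of 6. *Dpp4* was higher in CNT (log2 fold change 0.54, adjusted p 0.0305, edgeR), a call kept in 1 of 6 fits without 1 library. In the PCT itself 0 of the 12 were called by edgeR.

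Of the 13 proximal tubule genes, *Lrp2* (megalin), the endocytic receptor of the brush border, was higher in CNT of KO (9.42, 9.46 and 7.28 CPM in WT libraries, 37.6, 42.4 and 35.9 CPM in KO libraries, log2 fold change 2.10, adjusted p 1.99e-05, edgeR), and it kept that call in all 6 fits without 1 library. Of the 4 tested in CNT it was the only one called, and the median of the 4 was -0.96. *Slc5a2* (SGLT2), the glucose transporter of the early proximal tubule, was lower in the PCT of KO (214, 118 and 171 and 0, 3.92 and 26.7 CPM, log2 fold change -3.24, adjusted p 0.0215, edgeR) and kept that call in 3 of 6 such fits. Among the 14 dissociation genes in LOH, *Hspa1b* (log2 fold change 1.25) and *Socs3* (0.60) were higher and *Nr4a1* (-1.32) was lower, with the calls kept in 3, 2 and 6 of 6 such fits.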
